A study of Mus musculus with 6 samples.

Results

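Enterocyte differentiation was followed through 10 genes of the differentiated small intestinal enterocyte in mouse intestinal tumor organoids of 3 Trp53 genotypes. The members, chosen by name, were Alpi, Vil1, Fabp1, Fabp2, Sis, Lct, Anpep, Apoa1, Apoa4 and Slc5a1, and all 10 were found among the 36172 genes of the expression table. Poly(A) RNA of 6 organoid cultures, 2 for each genotype, was sequenced, and each culture came from a different mouse of 15 to 20 weeks of age on the C57BL/6 background. All 6 carried the Apc truncating mutation of the Apc(D716) strain, and the organoids were grown from small intestinal tumors, in which the remaining wild-type Apc allele is lost. The comparisons address how loss of p53 and expression of the p53 R270H mutant change gene expression in Apc-mutant tumor cells.

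The 3 genotypes were Trp53 +/+, with wild-type p53, Trp53 flox/flox, in which the allele was not recombined and is functionally null, and Trp53 R270H/R270H (p53(M/M) in the labels), in which both alleles expressed the R270H mutant. The flox/flox and R270H/R270H lines had the same Trp53 allele and differed in tamoxifen treatment of the mice, which activated a Cre recombinase (villin-CreER) driven by the promoter of villin, the product of the member Vil1. Whether the Trp53 +/+ mice carried the Cre transgene or received tamoxifen is not given in the sources used here. Each library is 1 culture, so 2 cultures stand for each genotype.

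Enterocytes are the absorptive cells of the intestinal villus. They arise from crypt stem cells that are kept dividing by Wnt signaling and, as they leave the crypt, build a brush border of microvilli that carries digestive hydrolases and nutrient transporters, while the cytoplasm fills with fatty acid binding proteins and the machinery that packs fat into lipoproteins. In Apc-mutant tumor cells the Wnt pathway is constitutively active.

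RefSeq promoter sequences (GRCm38.p6; 250 bases before to 50 bases after the transcription start) were matched for 10 of the 10 members. For each member 1 promoter was read, so other start sites of a gene are not covered. They were searched for CAAAGTCCA (bound by HNF4 factors), TTTATNG (bound by CDX factors), AGATAA (bound by the GATA family), CTTTGAT (bound by TCF/LEF factors) and the longer motif of HNF1 factors on both strands, and for TATAAA (the TATA box) on the sense strand. The CDX letters were found in 4 of the 10 members, against 10.9% of the 32851 promoters searched, which leave out 1 chromosome. The 4 are printed below 5′ to 3′ on the strand of the gene because they hold every CDX match of the members. They include the members that were at or near the detection limit in the flox/flox organoids (Alpi and Fabp1). The others are Fabp2, which was low in both p53-altered genotypes, and Sis, which was at the limit in every library. Capitals mark the motif matches, and the sequences lie at chr1:87101557-87101856 on the minus strand (Alpi), chr6:71199629-71199928 on the plus strand (Fabp1), chr3:122894822-122895121 on the plus strand (Fabp2) and chr3:72967814-72968113 on the minus strand (Sis).
Alpi: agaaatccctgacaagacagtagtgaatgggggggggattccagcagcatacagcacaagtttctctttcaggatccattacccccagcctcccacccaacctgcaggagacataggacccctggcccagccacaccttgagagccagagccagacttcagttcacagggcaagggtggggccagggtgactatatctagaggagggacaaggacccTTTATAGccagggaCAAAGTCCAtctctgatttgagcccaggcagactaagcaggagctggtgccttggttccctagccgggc
Fabp1: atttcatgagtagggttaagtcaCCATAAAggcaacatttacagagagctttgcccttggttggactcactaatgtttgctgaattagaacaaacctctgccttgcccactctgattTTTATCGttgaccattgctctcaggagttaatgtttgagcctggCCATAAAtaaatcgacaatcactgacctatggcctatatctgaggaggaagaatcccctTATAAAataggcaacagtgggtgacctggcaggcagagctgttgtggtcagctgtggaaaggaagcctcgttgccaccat
Fabp2: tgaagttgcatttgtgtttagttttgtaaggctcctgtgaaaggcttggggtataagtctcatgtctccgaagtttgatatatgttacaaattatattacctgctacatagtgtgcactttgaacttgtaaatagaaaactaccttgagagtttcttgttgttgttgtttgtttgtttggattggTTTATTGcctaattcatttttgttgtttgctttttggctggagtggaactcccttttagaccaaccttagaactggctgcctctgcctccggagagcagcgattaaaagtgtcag
Sis: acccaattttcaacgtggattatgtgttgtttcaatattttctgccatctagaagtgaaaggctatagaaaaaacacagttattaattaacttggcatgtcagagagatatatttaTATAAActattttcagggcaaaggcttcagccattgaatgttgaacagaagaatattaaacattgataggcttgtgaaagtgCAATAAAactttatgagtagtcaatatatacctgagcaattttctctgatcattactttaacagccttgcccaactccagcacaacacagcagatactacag
The Alpi promoter held a CDX match starting at -33 and the only HNF4 match among the members at -19, relative to the transcription start. Of the promoters searched, 0.475% held an HNF4 match. Fabp1 held CDX matches at -227, -133 and -89 and a TATA box at -30, Fabp2 a CDX match at -65, and Sis a CDX match at -52 and a TATA box at -134. The TATA box was found in 2 of the 10 members against 8.32% of the promoters searched. Read on the reverse strand, the CDX letters are CNATAAA, which share ATAAA with the TATA box. Lct held the only GATA matches, at -101 and -90 (11.2% of the promoters searched). The HNF1 and TCF/LEF motifs were found in 0 of the 10 members (0.14% and 3.73% of the promoters searched). Only exact letters were matched, so 0 of 10 for motifs this rare does not show that such sites are missing. A match describes these letters only. Promoters with and without a CDX match were found both among members above the limit and among members at the limit in every library.

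Expression is given in RPKM, the number of reads scaled to the length of the gene and to the total of mapped reads, as the authors deposited it, so levels are per length and can be set side by side between genes. No deposited value is below 1 rpkm, and genes at 1 rpkm are referred to as at the detection limit. A gene at this limit may still be expressed at a level of up to 1 rpkm. Of the 36172 genes, 23760 (65.7%) were at this limit in all 6 libraries and 10042 reached 4 rpkm in at least 1 library and were tested. The number of reads per library is not known, so no counting interval is given. The Trp53 gene itself was at 75.1±1.10 rpkm (mean±s.d., n=2) in Trp53 +/+, 2.11±0.529 rpkm in flox/flox and 77.7±7.00 rpkm in R270H/R270H organoids, as the labels state. The median gene varied between the 2 flox/flox libraries with an s.d. of 0.247 on the log2(rpkm + 1) scale, against 0.0463 in Trp53 +/+ and 0.0621 in R270H/R270H, and 9.18% of tested genes were more than 2-fold apart between the flox/flox libraries (0.0597% and 0.0996% in the others). Xist, the transcript of the inactive X chromosome, was at 11.8 and 69.0 rpkm in the flox/flox libraries and at the limit in the other 4, whereas the Y-linked gene Ddx3y was at the limit in flox/flox and at 11.3 to 18.7 rpkm in the other 4 libraries. Thus sex and the flox/flox genotype cannot be told apart in any comparison with flox/flox. These genes were chosen after their values were seen.

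The 9 markers of intestinal epithelium looked up, among them Epcam, Krt8 and Cdx2, were above the limit in all 6 libraries. Of the fibroblast and muscle markers, Col1a2 and Col3a1 were at the limit in all libraries and only Vim was above it in all of them. Vim was at 69.0 and 49.95 rpkm in Trp53 +/+, 71.6 and 19.8 rpkm in flox/flox and 306 and 284 rpkm in R270H/R270H. In the second flox/flox library Acta2 was at 11.5 rpkm and Col1a1 at 2.44 rpkm, against at most 1.59 rpkm for either in the other 5 libraries. Of the markers of blood and endothelium, 5 of 6 were at the limit throughout. The exception, Cd68, was at 10.2 and 9.87 rpkm in Trp53 +/+, 2.06 and 11.1 rpkm in flox/flox and 2.22 and 2.41 rpkm in R270H/R270H. The summed level of 7 Paneth cell markers was 1552 to 1929 rpkm in Trp53 +/+, 574 to 667 rpkm in flox/flox and 697 to 715 rpkm in R270H/R270H. Of these 7, 5 were called lower in R270H/R270H than in Trp53 +/+ and Defa22 was called higher, at 11.6 and 9.50 rpkm in Trp53 +/+ and 46.7 and 44.8 rpkm in R270H/R270H. Over all tested genes, 6.36% were called lower and 5.86% higher in this comparison. In flox/flox against Trp53 +/+, 5 of the 7 were called lower and 0 higher, against 6.90% and 4.38% of all tested genes. The 7 goblet cell markers summed to 324 to 376 rpkm in Trp53 +/+ and 136 to 171 rpkm in the other 4 libraries. Agr2 and Tff3 made up most of these sums, and Tff3 in the first flox/flox library (107 rpkm) lay between the Trp53 +/+ values. Muc2 was slightly higher in R270H/R270H (1.26 and 1.42 rpkm), Spdef was highest in the second flox/flox library (4.89 rpkm) and Zg16 was at the limit throughout. Of the 5 tested, 2 were called lower in flox/flox and 1 in R270H/R270H against Trp53 +/+, and 0 higher. The summed stomach markers were at 67.7 and 68.7 rpkm in Trp53 +/+, 10.6 and 95.4 rpkm in flox/flox and 8.70 and 8.94 rpkm in R270H/R270H, and in the second flox/flox library Gkn3 alone was at 67.6 rpkm. The part of these cell type markers in the results on enterocyte genes was not tested. In RNA from whole cultures, fewer cells of a type and less RNA per cell cannot be told apart.

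Enterocyte genes were above the limit only in part in these organoids. Of the 10 members, 6 reached the level for testing, and 4 (Sis, Lct, Apoa1 and Apoa4) were at the limit of 1 rpkm in every library. The 6 tested members encode a cytoskeletal protein of the microvillus, 2 brush border enzymes, a glucose transporter and 2 fatty acid binding proteins. The 4 at the limit encode both disaccharidases and both apolipoproteins of the list.

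**Figure D1:**
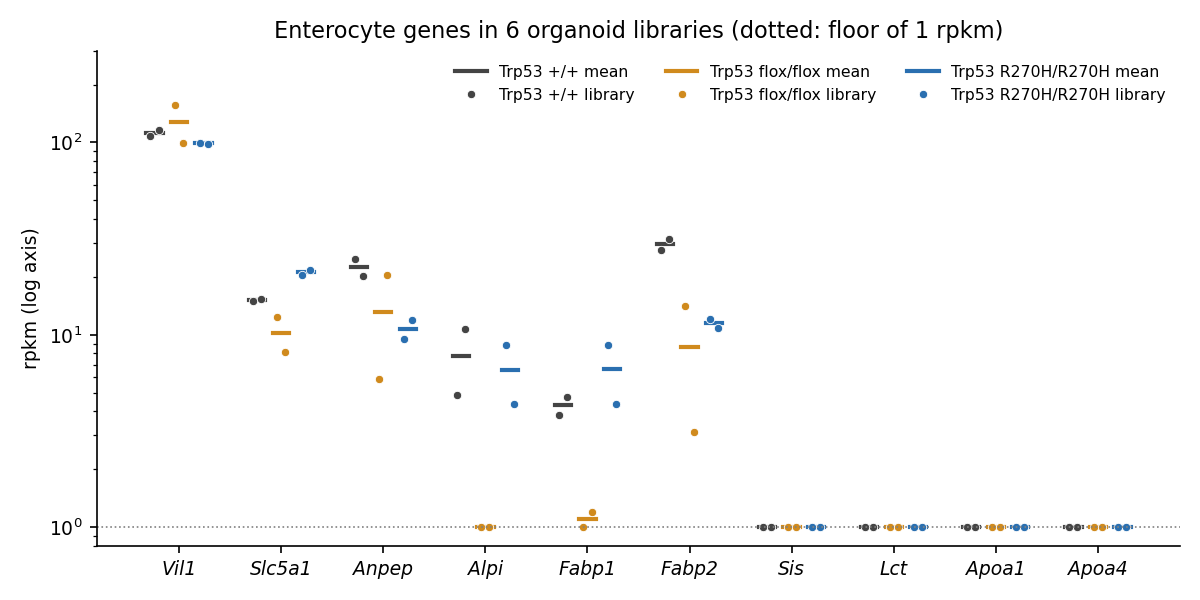
Level of each of the 10 enterocyte genes in each of the 6 libraries (points, rpkm on a log axis) by Trp53 genotype, with the mean of the 2 libraries as a bar. Vil1 lies between 98.5 and 156 rpkm, Alpi is at the limit of 1 rpkm in flox/flox with Fabp1 at 1 and 1.20 rpkm, and Sis, Lct, Apoa1 and Apoa4 lie at the limit everywhere.

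Vil1, which encodes the actin-bundling protein villin of the microvillus core, was the highest member in every library. It was at 108 and 117 rpkm in Trp53 +/+, 156 and 99.4 rpkm in flox/flox, and 99.7 and 98.5 rpkm in R270H/R270H organoids. The R270H/R270H libraries were below Trp53 +/+ and overlapped the lower flox/flox library, and the flox/flox libraries lay on both sides of Trp53 +/+. No comparison passed the test over all 6 libraries. The log2 fold change was 0.15 (s.e. 0.22, adjusted P=0.642) for flox/flox against Trp53 +/+, and -0.18 (s.e. 0.22, adjusted P=0.636) for R270H/R270H against Trp53 +/+. R270H/R270H against flox/flox gave -0.33 (s.e. 0.22, adjusted P=0.30). Without the second flox/flox library, flox/flox against Trp53 +/+ was 0.48 and R270H/R270H against flox/flox was -0.65. Without the first, these were -0.17 and -0.0042. With a single flox/flox library left, the spread comes from the other genotypes only, so no call is taken from such a fit. Vil1 (chromosome 1, 74409376 to 74435559, plus strand, GRCm38) overlaps Usp37 on the opposite strand, which was at 7.37 to 12.2 rpkm on average, and the sources do not state whether reads were counted by strand.

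Alpi encodes intestinal alkaline phosphatase, a brush border enzyme and a classical marker of mature enterocytes. It was at 4.86 and 10.7 rpkm in Trp53 +/+, at the limit in both flox/flox libraries, and at 8.80 and 4.35 rpkm in R270H/R270H. Both genotypes that expressed Trp53 were above flox/flox without overlap, and they overlapped each other. Against the detection limit, the mean level was at least 7.77-fold higher in Trp53 +/+ (7.77±4.11 rpkm) and at least 6.58-fold higher in R270H/R270H (6.58±3.14 rpkm) than in flox/flox. In the limma fit across all tested genes, Alpi was lower in flox/flox than in Trp53 +/+, with a log2 fold change of -2.05 (s.e. 0.43, adjusted P=0.0426), and higher in R270H/R270H than in flox/flox (1.86, s.e. 0.43, adjusted P=0.0351). The difference between R270H/R270H and Trp53 +/+ was -0.19 (s.e. 0.43, adjusted P=0.796), and it was 0.30 without the second Trp53 +/+ library and 0.24 without the second R270H/R270H library. Within genotypes Alpi was also variable, since its difference of 0.99 (log2) between the 2 Trp53 +/+ libraries was exceeded by only 7 of the 10042 tested genes, and its difference of 0.87 between the R270H/R270H libraries by 25.

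Alpi was at the limit in both flox/flox libraries and above it in all others. The direction of both called differences therefore could not change when a single library was left out. The calls were lost in some of these fits. The decrease in flox/flox was -2.55 (adjusted P=0.156) without the first and -1.55 (adjusted P=0.273) without the second Trp53 +/+ library. The decrease stayed at -2.05 without either R270H/R270H library, where it was no longer called. It was also -2.05 without either flox/flox library, since both were at the limit. The Alpi difference between R270H/R270H and flox/flox stayed at 1.86 without the first (adjusted P=0.0696) or second (0.0681) Trp53 +/+ library, and was 1.42 (0.220) or 2.29 (0.102) without the first or second R270H/R270H library. Over all tested genes, fewer were called in fits without a Trp53 +/+ or R270H/R270H library, and more in fits without a flox/flox library. Alpi (chromosome 1, 87098002 to 87101606, minus strand) lies 23366 bases from Akp3, a second intestinal alkaline phosphatase gene. Of 2288 windows of 50 bases in Alpi transcripts, 55 (2.4%) occurred in another gene, 35 of them in Akp3. Only exact matches were counted, and the sharing of reads between the pair was not tested. Akp3 was at 7.12 and 21.7 rpkm in Trp53 +/+, at the limit in both flox/flox libraries, and at 21.1 and 16.3 rpkm in R270H/R270H. Like Alpi, Akp3 passed the limma test as lower in flox/flox than in Trp53 +/+ (-2.76, adjusted P=0.0314). It was called higher in R270H/R270H than in flox/flox (3.29, adjusted P=0.0139). Both genes were at the limit in flox/flox and were tested only because they were higher elsewhere, so these directions were fixed. The limit also hides any spread of both genes between the flox/flox libraries.

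Anpep, the gene of aminopeptidase N, which releases amino acids from peptides at the brush border, was at 24.8 and 20.1 rpkm in Trp53 +/+, 5.88 and 20.5 rpkm in flox/flox and 9.52 and 11.98 rpkm in R270H/R270H. The R270H/R270H libraries were below both Trp53 +/+ libraries, whereas 1 flox/flox library was below all others and the other lay within the Trp53 +/+ range. The mean was 2.09-fold higher in Trp53 +/+ than in R270H/R270H, and the log2 fold change of -1.00 (s.e. 0.53) did not pass the limma test over the 3 genotypes (adjusted P=0.267). For flox/flox against Trp53 +/+ it was -0.94 (s.e. 0.53, adjusted P=0.263), which became -1.76 without the second flox/flox library and -0.11 without the first. Fits with a single flox/flox library take their spread from the other genotypes, so no call is read from them. The difference of 1.65 (log2) between the 2 flox/flox libraries was exceeded by 275 of the tested genes (2.74%). Hence the sign of R270H/R270H against flox/flox (-0.06, s.e. 0.53, adjusted P=0.942) depended on a single library. It was 0.76 without the second flox/flox library, -0.88 without the first, and 0.09 without the first R270H/R270H library.

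The disaccharidase genes Sis (sucrase-isomaltase, which splits sucrose and starch products) and Lct (lactase) were at the limit of 1 rpkm in all 6 libraries. No fold change can be given for either gene. Sis lies on chromosome 3 (72888557 to 72967863, minus strand) and Lct on chromosome 1 (128284756 to 128328318, minus strand).

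Slc5a1, which encodes SGLT1, the sodium-coupled glucose and galactose transporter of the apical membrane, was at 14.9 and 15.3 rpkm in Trp53 +/+, 12.4 and 8.17 rpkm in flox/flox and 20.4 and 21.8 rpkm in R270H/R270H. The 3 genotypes did not overlap, with flox/flox lowest and R270H/R270H highest. The mean in R270H/R270H was 2.06-fold that in flox/flox, and this difference passed the test (log2 fold change 1.00, s.e. 0.19, adjusted P=0.0247). The difference stayed at 1.00 without the first (adjusted P=0.0896) or second (0.0873) Trp53 +/+ library and was 1.04 (0.179) or 0.95 (0.152) without the first or second R270H/R270H library, so that the call was lost and the size was not. The other differences did not pass, at -0.54 (s.e. 0.19, adjusted P=0.121) for flox/flox against Trp53 +/+ and 0.46 (s.e. 0.19, adjusted P=0.178) for R270H/R270H against Trp53 +/+. The first of them was -0.81 without the first flox/flox library and -0.27 without the second. Because a fit with a single flox/flox library takes its spread from the other genotypes, no call is read from it. Slc5a1 (chromosome 5, 33104219 to 33162870, plus strand) overlaps the annotated pseudogenes 5033423K11Rik on the opposite strand and Gm15936 on the same strand, for which no values were used.

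Fabp1 and Fabp2 encode the liver-type and intestinal-type fatty acid binding proteins, which carry absorbed fatty acids through the enterocyte cytoplasm. Fabp1 was at 3.81 and 4.77 rpkm in Trp53 +/+, 1 and 1.20 rpkm in flox/flox and 8.87 and 4.39 rpkm in R270H/R270H. Both flox/flox libraries were below the other 4, and the R270H/R270H libraries overlapped Trp53 +/+. Since 1 flox/flox library was at the limit, the mean was at least 3.89-fold higher in Trp53 +/+ and at least 6.02-fold higher in R270H/R270H than in flox/flox. The increase in R270H/R270H over flox/flox passed the test (log2 fold change 1.80, s.e. 0.31, adjusted P=0.0193). It stayed at 1.80 without the first (adjusted P=0.0734) or second (0.0721) Trp53 +/+ library and was 1.36 (0.0865) without the first R270H/R270H library, each no longer called. The flox/flox level did not pass against Trp53 +/+ (-1.33, s.e. 0.31, adjusted P=0.0555). Fits with a single flox/flox library take their spread from the other genotypes, so no call is read from them. R270H/R270H against Trp53 +/+ gave 0.47 (s.e. 0.31, adjusted P=0.358).

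Fabp2 showed another order. It was at 27.6 and 31.4 rpkm in Trp53 +/+, 14.2 and 3.11 rpkm in flox/flox and 12.1 and 10.8 rpkm in R270H/R270H. All 4 libraries without wild-type p53 were below both Trp53 +/+ libraries, and the R270H/R270H libraries lay between the flox/flox ones. The mean was 3.41-fold higher in Trp53 +/+ than in flox/flox and 2.58-fold higher than in R270H/R270H. Neither passed in the fit over the 3 genotypes, with -1.95 (s.e. 0.59, adjusted P=0.0918) for flox/flox and -1.29 (s.e. 0.59, adjusted P=0.209) for R270H/R270H. The 2 flox/flox libraries were 1.89 (log2) apart, a difference exceeded by 183 tested genes (1.82%). Without the first or second of them the decrease in flox/flox was -2.89 or -1.00. R270H/R270H against flox/flox was 0.66 (s.e. 0.59, adjusted P=0.425), and changed to -0.29 without the second flox/flox library and to 1.60 without the first. Such fits with a single flox/flox library take their spread from the other genotypes, so no call is read from them. Fabp1 lies on chromosome 6 (71199827 to 71205023, plus strand) and Fabp2 on chromosome 3 (122895072 to 122899506, plus strand), where it overlaps 4933405D12Rik, a gene at the limit in all libraries.

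Apoa1 and Apoa4, the apolipoproteins that enterocytes load onto chylomicrons and high-density lipoprotein, were at the limit in all 6 libraries. They lie in a cluster on chromosome 9 (46228580 to 46230466 and 46240696 to 46243459, both on the plus strand), in which 2466 bases separate Apoa1 from Apoc3, 5059 bases separate Apoc3 from Apoa4, and 25173 bases separate Apoa4 from Apoa5. Apoc3 and Apoa5 were also at the limit in every library, so none of the 4 apolipoprotein genes of this cluster was above it. Sik3, a kinase gene 4385 bases from Apoa1 on the other side, was expressed, at 9.62±0.293 rpkm in Trp53 +/+, 11.1±0.680 rpkm in flox/flox and 13.3±0.420 rpkm in R270H/R270H.

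The order of the levels also differed between genotypes, as a description. In Trp53 +/+ organoids it was Vil1, Fabp2, Anpep, Slc5a1, Alpi and Fabp1, and the 2 libraries of neighbouring genes in this order did not overlap. In flox/flox organoids Anpep, Slc5a1 and Fabp2 overlapped one another below Vil1, and Fabp1 and Alpi overlapped at or next to the limit. In R270H/R270H organoids Slc5a1 (21.1±0.980 rpkm) stood in the next place after Vil1, Fabp2 and Anpep overlapped, and so did Fabp1 and Alpi.

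**Figure D2:**
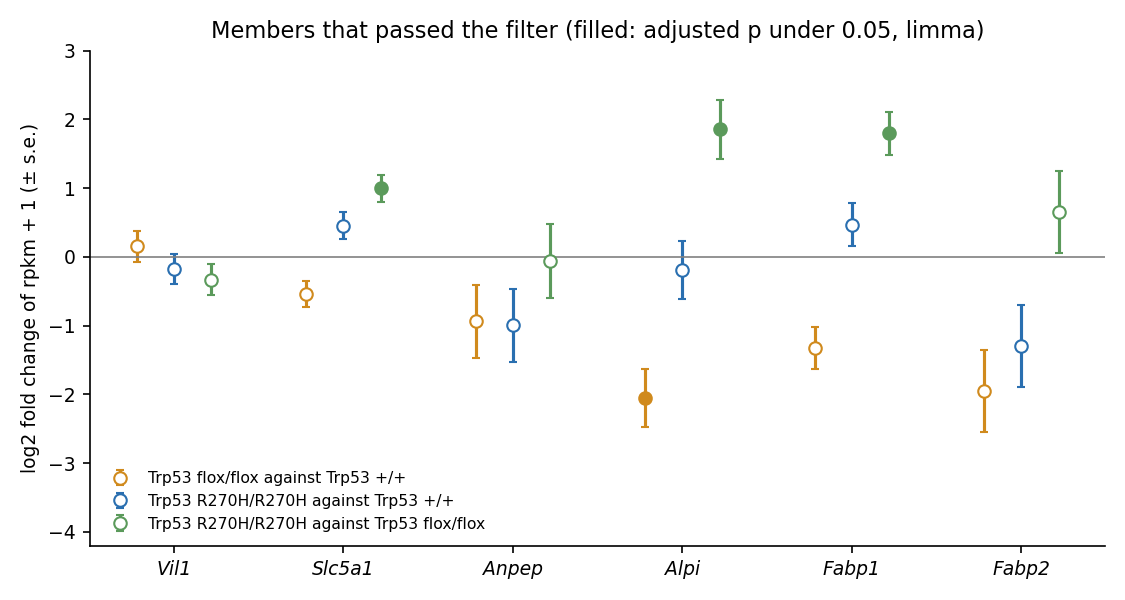
Log2 fold changes of the 6 tested members with their standard errors in the 3 comparisons, from limma on log2(rpkm + 1), with filled points for an adjusted P under 0.05. The filled points are Alpi (-2.05) in flox/flox against Trp53 +/+ and Alpi (1.86), Fabp1 (1.80) and Slc5a1 (1.00) in R270H/R270H against flox/flox.

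For flox/flox against Trp53 +/+, 1 of the 6 tested members (Alpi) was called, and it was lower. Of all tested genes, 6.90% were called lower and 4.38% higher. The libraries of 4 members did not overlap, all 4 lower in flox/flox, where 64.5% of all tested genes did not overlap and 33.9% lay below. The median log2 fold change of the 6 was -1.13, against -0.02 for all tested genes. For R270H/R270H against flox/flox, 3 of the 6 (Alpi, Fabp1 and Slc5a1) were called, all of them higher, where 13.6% of tested genes were called higher and 11.0% lower. The same 3 members lay above flox/flox in both libraries, as did 36.8% of tested genes, where 68.0% did not overlap in either direction, and the median of the 6 was 0.83, against 0.03 for all tested genes. These 2 comparisons share the flox/flox libraries, so their values are not independent. Members that reached the level for testing only in the genotypes where they were high, as Alpi and Fabp1 did, had to differ from a genotype at the limit.

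For R270H/R270H against Trp53 +/+, limma called 0 of the 6 tested members, and 0 had an unadjusted P under 0.05, where 12.2% of all tested genes were called (5.86% higher and 6.36% lower). The libraries of 4 members did not overlap (Vil1, Fabp2 and Anpep lower, Slc5a1 higher), as did 81.8% of all tested genes (44.2% above and 37.6% below), and the median of the 6 was -0.18, against 0.03 for all tested genes. This count changed with the fit, and the cause was not tested. The fit used 1 spread per gene for all 3 genotypes, so 0 calls are not read as equal levels. With only the 2 genotypes compared, the s.e. went from 0.59 to 0.087 for Fabp2 and from 0.43 to 0.39 for Alpi. With only the 2 genotypes compared in the fit, 3 members were called, Fabp2 (-1.29, adjusted P=0.000147) and Anpep (-1.00, adjusted P=0.00167) lower and Slc5a1 (0.46, adjusted P=0.0018) higher in R270H/R270H. The same 3 were called with a weight for each genotype (adjusted P=0.000254, 0.00148 and 0.0011), and without the first (0.000484, 0.00367 and 0.00324) or the second (0.000433, 0.0036 and 0.00308) flox/flox library. In those fits the background was also larger, with 3150 genes higher and 2618 lower of 9763 tested with only the 2 genotypes. Conversely, with only the 2 genotypes in the fit no member was called in either comparison with flox/flox, where Alpi had an adjusted P of 0.110 against Trp53 +/+, and R270H/R270H against flox/flox gave 0.0671 for Alpi, 0.0697 for Fabp1 and 0.0815 for Slc5a1. With the weight for each genotype, Slc5a1 alone was called among the comparisons with flox/flox (R270H/R270H against flox/flox, adjusted P=0.0477).

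Genes with the level profile most like each member were found by the root mean square of the log2 difference over the 6 libraries, after each gene was centred on its own mean. The profile of Alpi was most like those of Mep1b (0.32), a brush border metallopeptidase gene, Pcsk1 (0.36) and the Y-linked gene Uty (0.37). Uty, like Alpi, was at the limit in both flox/flox libraries. Next to Fabp1 were Trib2 (0.19), Snora81 (0.20) and Ctsf (0.22), and next to Fabp2 were Abcb1a (0.15), Fhit (0.27) and D730005E14Rik (0.31). Anpep was nearest to Qsox1 (0.12), Prdm16 (0.12) and Il4ra (0.14). Slc5a1 was nearest to Zfp932 (0.06), Hnf4g (0.07), which encodes a nuclear receptor of the enterocyte, and Skp1a (0.09). Vil1 spanned under 1 log2 unit and was not matched. These nearest genes among all those tested are a description, and how often such matches arise by chance was not tested.

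The remainder of the absorptive program was read from 97 further genes in 6 lists, all of which were matched. Of them, 59 reached the level for testing and 21 were at the limit in all 6 libraries. Of the transcription factors of the absorptive lineage, 14 of 15 were tested and 1 was at the limit throughout, and of the brush border scaffold genes 12 of 14 were tested and 1 was at the limit. By contrast, 5 of 18 hydrolase genes and 6 of 17 transporter genes were tested, and 6 in each list were at the limit in all libraries. Of the 21 genes of lipid absorption and lipoprotein assembly 14 were tested and 4 were at the limit throughout, and of 12 other absorptive cell genes 8 were tested and 3 were at the limit.

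**Figure D3:**
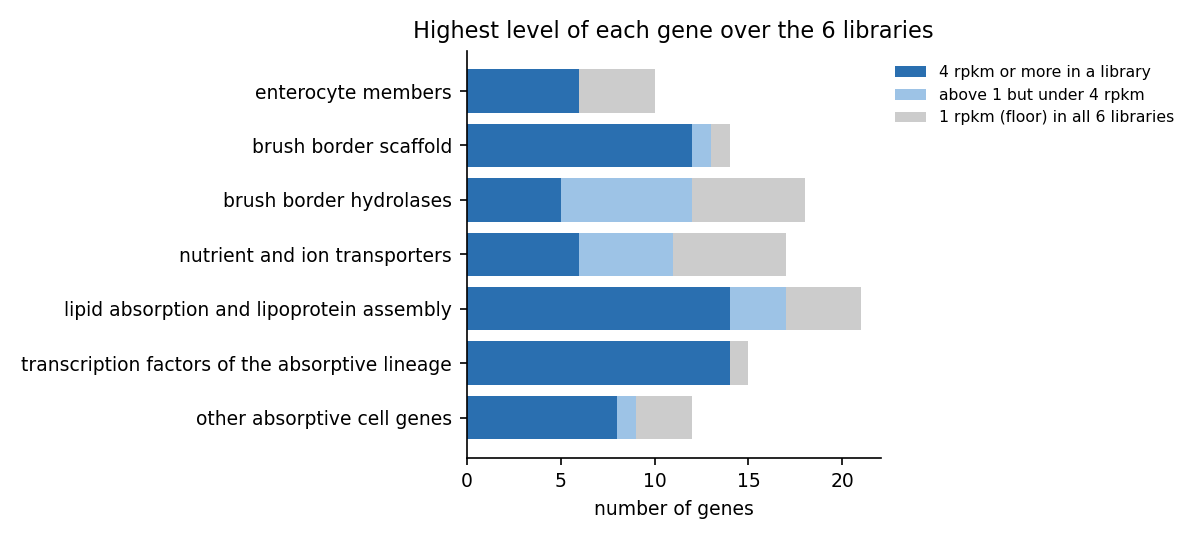
Number of genes of the enterocyte members and of the 6 wider lists by whether they were tested, above the limit of 1 rpkm in some library without being tested, or at the limit in all 6 libraries. The scaffold and transcription factor lists have 1 gene each at the limit, against 6 in each of the hydrolase and transporter lists.

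Against Trp53 +/+, 16 of the 59 tested wider genes passed the test in flox/flox, 4 higher and 12 lower. Of all tested genes, 11.3% were called, 4.38% higher and 6.90% lower. The median of the 59 was -0.53. Of the 5 tested hydrolases, 4 were lower and 0 higher, with a median of -1.30. They were Akp3, Mep1b (-2.03, adjusted P=0.0136), Ace (-1.30, adjusted P=0.0347), which encodes angiotensin-converting enzyme, and Mgam (-1.22), the gene of maltase-glucoamylase, which was named after its values were seen. Mep1b was at 7.86 and 10.8 rpkm in Trp53 +/+, 1.98 and 1.09 rpkm in flox/flox and 8.83 and 8.25 rpkm in R270H/R270H, so both flox/flox libraries were below the other 4. Akp3 and Mep1b were under 4 rpkm in both flox/flox libraries and were tested only because they were higher elsewhere. Their direction, and with it the median of the 5 hydrolases, was therefore partly fixed by the filter.

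Of the 12 tested scaffold genes, 2 were called lower and 1 higher in flox/flox, against 6.90% and 4.38% of all tested genes. Counts from such short lists are given as a description. Cdhr2 (-1.49, adjusted P=0.0387), a protocadherin that links microvilli, and Myo1a (-1.39, adjusted P=0.0152), the brush border myosin, were lower, and Slc9a3r1 (1.13, adjusted P=0.0199), a scaffold protein of the apical membrane, was higher. Of the 6 tested transporters, only Slc40a1 (-1.30, adjusted P=0.0147), the iron exporter ferroportin, was called. Of the 14 tested lipid genes, Apoc2 (-2.32, adjusted P=0.00794), a lipoprotein lipase cofactor, and Plin2 (-0.75, adjusted P=0.0177), a lipid droplet protein, were lower. Scarb1 (0.59, adjusted P=0.0394), a lipoprotein receptor, was higher. Apoc2 was at 1 and 1.03 rpkm in flox/flox and was tested only because it was higher elsewhere, so its direction was partly fixed by the filter.

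Among the 14 tested transcription factors, Klf4 was higher (0.90, adjusted P=0.0177) and Maf lower (-0.83, adjusted P=0.0421) in flox/flox. Maf was at the limit in both flox/flox libraries, at 2.16 and 2.98 rpkm in Trp53 +/+ and at 11.2 and 9.69 rpkm in R270H/R270H, so the 3 genotypes did not overlap. Maf was tested only because of its R270H/R270H levels, and at the limit it could not be higher in flox/flox. In the list of other absorptive cell genes, Prap1, which encodes a secreted proline-rich protein, was lower (-4.06, adjusted P=0.037), from 83.9 and 133 rpkm in Trp53 +/+ to 1.79 and 13.6 rpkm in flox/flox. Ces2a, a carboxylesterase gene, was lower as well (-3.92, adjusted P=0.0147), from 66.8 and 78.9 rpkm to 1.98 and 6.92 rpkm, and Ada (adenosine deaminase) was higher (0.74, adjusted P=0.0314). Ces2a has close copies in the genome, so its counts are uncertain.

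In R270H/R270H against Trp53 +/+, 10 of the 59 wider genes were called, 4 higher and 6 lower, where 12.2% of all tested genes were called (5.86% higher and 6.36% lower), and the median was -0.12. The scaffold gene Myo1a (-0.81, adjusted P=0.0404), the transporter Slc40a1 (-0.89, adjusted P=0.0276), the lipid genes Apoc2 (-1.00, adjusted P=0.0375) and Acsl5 (-0.84, adjusted P=0.0332) and the esterase gene Ces2a (-2.44, adjusted P=0.0339) were lower. The hydrolase Mme, which encodes neprilysin, was higher (1.46, adjusted P=0.0293) and was at the limit in both Trp53 +/+ libraries, at 1 and 2.27 rpkm in flox/flox and at 4.59 and 4.40 rpkm in R270H/R270H. Of the transcription factors, Maf (1.69, adjusted P=0.00713) and Gata6 (1.06, adjusted P=0.00783) were higher and Gata4 was lower (-1.04, adjusted P=0.0385). Gata4 and Gata6 encode related factors of the intestinal epithelium. Gata6 was at 6.85 and 6.41 rpkm in Trp53 +/+ and 15.0 and 14.8 rpkm in R270H/R270H, whereas Gata4 was at 32.3 and 32.1 rpkm in Trp53 +/+ and 13.7 and 16.8 rpkm in R270H/R270H. Ada was higher here too (1.26, adjusted P=0.00734). Mme and Maf were under 4 rpkm in every Trp53 +/+ and flox/flox library and were tested only because of their R270H/R270H levels. Their direction was therefore partly fixed by the filter.

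In R270H/R270H against flox/flox, 20 of the 59 were called, 14 higher and 6 lower, and the median was 0.28. Of all tested genes, 24.6% were called, 13.6% higher and 11.0% lower. All 5 tested hydrolases were higher, with a median of 1.19, among them Akp3, Mep1b (1.93, adjusted P=0.00883) and Ace (1.19, adjusted P=0.0269). Akp3, Mep1b and Mme were under 4 rpkm in both flox/flox libraries and were tested only because they were higher elsewhere, so their direction was partly fixed by the filter. Of the lipid genes, Apoc2 (1.32, adjusted P=0.0144) and Mttp (0.90, adjusted P=0.0274), which loads lipid onto apolipoprotein B, were higher and Acsl5, an acyl-CoA synthetase gene, was lower (-1.04, adjusted P=0.0148). Of the transcription factors, Maf (2.52, adjusted P=0.00247) and Hnf4g (0.99, adjusted P=0.0281) were higher and Klf4 was lower (-1.02, adjusted P=0.00741). Apoc2, Mttp and Maf were also under 4 rpkm in both flox/flox libraries, with the same limit on their direction. Prap1 (3.07, adjusted P=0.045) and Ada (0.52, adjusted P=0.0418) were higher, whereas the scaffold gene Slc9a3r1 (-1.19, adjusted P=0.0101) and the amino acid transporter gene Slc7a7 (-0.44, adjusted P=0.0409) were lower. These counts moved with single libraries, as did those over all genes. Without the first or second flox/flox library, 44 or 43 wider genes were called here, 40 or 46 in flox/flox against Trp53 +/+ and 35 or 34 in R270H/R270H against Trp53 +/+. In the same fits of R270H/R270H against flox/flox, 2939 genes were called higher and 2425 lower of 9931 tested, or 3854 higher and 3387 lower of 9944. For flox/flox against Trp53 +/+ these were 1968 higher and 2198 lower, or 3201 higher and 3690 lower, so nothing particular to the lists is read from them. Without either R270H/R270H library 1 was called here and without either Trp53 +/+ library 5, and in the comparisons with Trp53 +/+ leaving out any of these 4 libraries gave 0.

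**Figure D4:**
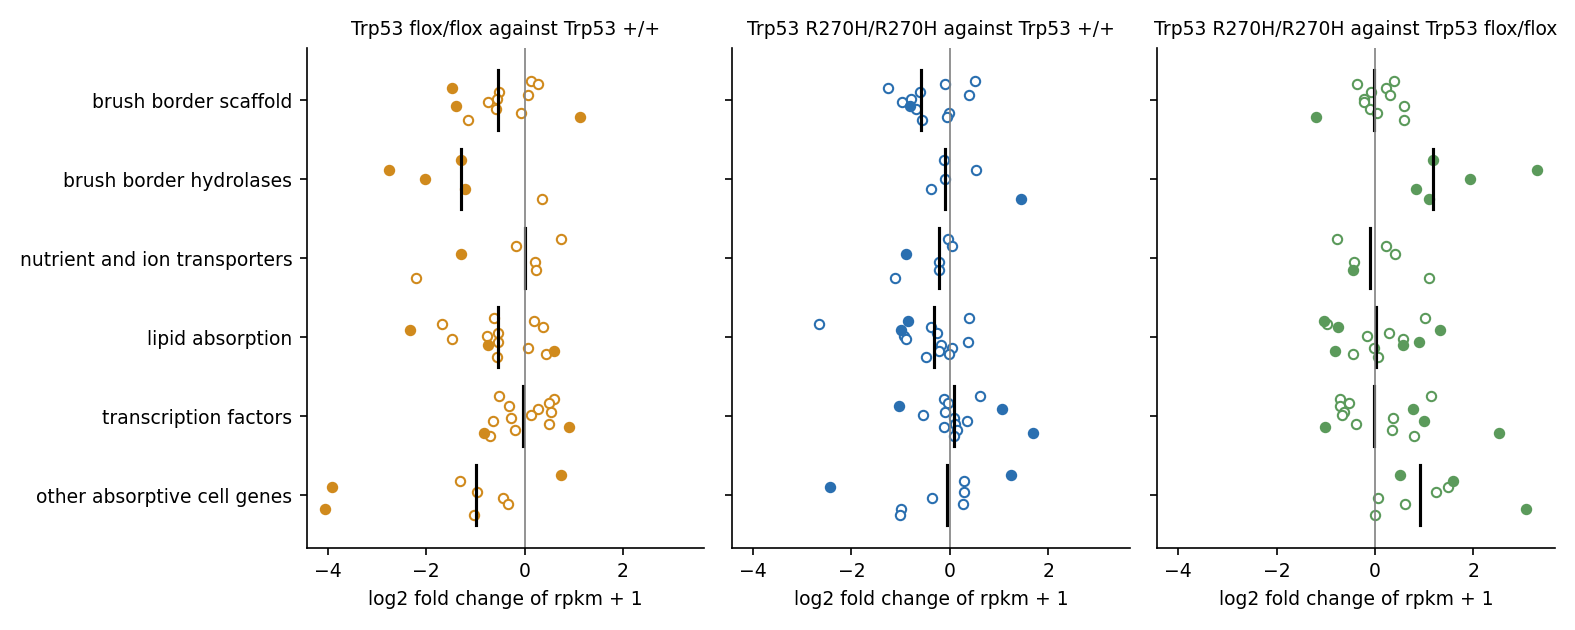
Log2 fold changes of the 59 tested genes of the 6 wider lists in the 3 comparisons, with filled points for an adjusted P under 0.05 in limma and a bar at the median of each list. Of the 5 hydrolases, 4 lie below 0 in flox/flox against Trp53 +/+ (median of the 5 -1.30) and all 5 above 0 in R270H/R270H against flox/flox (median 1.19). For Akp3 and Mep1b in both of these comparisons, and for Mme in the second, the filter partly fixed the direction.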

How the data were processed

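RNA sequencing of 6 organoid cultures was analysed from the deposited table of RPKM values for 36172 genes, with a floor of 1 rpkm. The authors mapped the reads to the mouse genome mm10 and computed the RPKM values with StrandNGS. The aligner, the software version, the annotation and the use of strand in counting are not given in the sources used here. Reads per library could not be recovered from the low values. Values were transformed to log2(rpkm + 1), which understates the change of low genes, and the 10042 genes that reached 4 rpkm in 1 or more libraries were fitted with limma 3.58.1 in R 4.3.3 over all 3 genotypes with a variance trend. P-values are two-sided, adjusted by Benjamini-Hochberg over all tested genes of a comparison, and called under 0.05. An exact permutation test of 2 against 2 libraries cannot give a P below 0.333, so the calls rest on spread pooled over genes. The fit was tested on simulated data.

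Fold changes are the first genotype minus the second. Groups followed the titles, and the organoids are described as coming from separate mice. Members and lists were chosen with earlier results of these data known. Genes named from the wider lists were, per list and comparison, up to 3 called genes with the largest change. A gene that this rule names is not reported here. Positions and windows were taken from GENCODE M21 on GRCm38 and promoters from RefSeq (GRCm38.p6). Other pseudocounts, filters, scalings, weights, sets of genotypes, blocks and single libraries left out were tried as alternatives.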

Additional observations from a re-analysis of the deposited data

How the results depend on the processing

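Among the 6 tested members, the number called was 1 for flox/flox against Trp53 +/+, 0 for R270H/R270H against Trp53 +/+ and 3 for R270H/R270H against flox/flox. In this order, a weight for each genotype gave 0, 3 and 1, a fit of only the 2 genotypes compared gave 0, 3 and 0, and leaving out 1 library gave 0 to 6, 0 to 3 and 0 to 5. A pseudocount of 0.1 or none gave 2 for flox/flox against Trp53 +/+. For the 59 wider genes, with 16, 10 and 20 called, the weight gave 3, 37 and 3, the fits of 2 genotypes 0, 37 and 4, and leaving out 1 library 0 to 46, 0 to 35 and 1 to 44. The same settings moved the counts over all genes. Of 440 higher and 693 lower in flox/flox against Trp53 +/+, 35 and 115 were called with the weight and 13 and 46 with 2 genotypes. Of 588 and 639 in R270H/R270H against Trp53 +/+, these gave 3200 and 2787, and 3150 and 2618. Of 1362 and 1107 in R270H/R270H against flox/flox, they gave 377 and 157, and 256 and 141. The cause was not tested. Where a genotype was left with 1 library, that library was assumed to vary like the others.

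The replicate numbers do not pair the samples, since the organoids came from different mice and the deviations of equal numbers correlated at 0.117, -0.291 and -0.196. With a replicate block, 0 members were called in flox/flox against Trp53 +/+ and 2 in R270H/R270H against flox/flox (Alpi adjusted P=0.0844 and 0.0663, limma), and the wider genes called were 6, 4 and 11. With the R270H/R270H numbers exchanged in the block, a choice made after seeing the data, 2 members were called in flox/flox against Trp53 +/+. Over all genes the block called 71 higher and 209 lower, 255 and 295, and 668 and 488.

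The sign of 4 differences of single members changed when a library was left out. They were Alpi in R270H/R270H against Trp53 +/+ (-0.69 to 0.30 when single libraries were left out, with 0.30 and 0.24 without replicate 2 of Trp53 +/+ or of R270H/R270H), Vil1 in flox/flox against Trp53 +/+ (-0.17 without flox/flox replicate 1, to 0.48), and, in R270H/R270H against flox/flox, Fabp2 (-0.29 without flox/flox replicate 2, to 1.60) and Anpep (-0.88 to 0.76, with 0.76 without flox/flox replicate 2 and 0.09 without R270H/R270H replicate 1). Of the other single-member values under the alternatives, 250 kept direction and side of the threshold, 24 lost a call and 26 gained one.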
